A study of Mus musculus with 4 samples.

Results

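The clustered protocadherins are the *Pcdha*, *Pcdhb* and *Pcdhg* genes of mouse chromosome 18. All gene identifiers on that chromosome whose symbol begins with one of these names were taken, without regard to their expression, and they came to 58 of the 24532 identifiers in each library. The alpha cluster held 14 of them, the beta cluster 22 and the gamma cluster 22. Expression was measured by bulk RNA sequencing of granule-cell-enriched (GCE) tissue, dissected by hand from slices of the cerebellar vermis. Each library came from 1 mouse, and there were 2 wild-type (WT) and 2 *Kdm3b*+/- libraries. Mice of both groups were adult males over 7 weeks old and the WT mice were littermates of the *Kdm3b*+/- mice. The *Kdm3b*+/- mice carry 1 *Kdm3b* allele disrupted in the germline by the gene-trap vector pGT0lxf, from the embryonic stem (ES) cell line YTC406, on a background of C57Bl/6N crossed to C57Bl/6J. *Kdm3b* encodes a demethylase of lysine 9 on histone 3 (H3K9), and the question of the comparison was how expression differs when 1 of its alleles is disrupted.

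Clustered protocadherins are cadherin-like adhesion proteins of the neuronal surface. Each neuron transcribes a small set of the alternative members, chosen promoter by promoter, and cells whose membranes carry the same set recognize each other by homophilic binding, which lets the branches of one neuron avoid each other. In the alpha and gamma clusters each member has its own large variable exon, which encodes the extracellular and transmembrane domains and is spliced to constant exons shared by the cluster, whereas beta members are single-exon genes without a constant part. The last members of the alpha and gamma clusters, called C-type, differ in sequence from the others and are transcribed in a less selective manner. CTCF and cohesin bring the chosen promoters to distant enhancers, and unchosen promoters carry DNA methylation and repressive H3K9 methylation.

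The clusters lie in tandem on the forward strand, downstream of *Kdm3b* on the same chromosome. In the coordinates of the deposited tables, which lay within 1 kb of the GRCm38.p6 RefSeq start for all 58 members, *Kdm3b* spans 34777008 to 34839370, the alpha cluster 36930285 to 37187660, the beta cluster 37264998 to 37521419 and the gamma cluster 37661945 to 37841872. The alpha, beta and gamma clusters thus begin 2.09, 2.43 and 2.82 Mb beyond the end of *Kdm3b*. Since the trapped chromosome came from ES cells, the *Kdm3b* genotype and any other allele inherited with it over this distance cannot be told apart in these mice. In the GENCODE transcripts of GRCm38, every alpha member had 4 exons, and a median of 53.5% of its bases lay in exons of other members. Every gamma member had 4 exons as well, with a median of 44.8% of bases in exons of other members. Each beta member had 1 exon, and the only shared bases were the 455 where *Pcdhb21* and *Pcdhb22* overlap. The value of a single alpha or gamma gene therefore depends on how the estimation of abundance divided the reads of the constant exons, which summed values over a cluster do less.

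The libraries held between 4.92 and 6.69 Gb of aligned bases, and 17572 to 17991 genes had a value above 0. The targeted gene *Kdm3b* had 9.10 and 11 TPM, a level scaled to transcript length and to the total of the library, in WT mice against 8.30 and 7.90 TPM in *Kdm3b*+/- mice. Its level was thus lower in both *Kdm3b*+/- mice, by 0.27 ± 0.17 (SE) on the log2(TPM + 1) scale, which did not pass the test (limma adjusted p = 0.424). This value covers the whole gene, and reads before and after the inserted trap were not counted apart. It is therefore not a measure of the loss of intact *Kdm3b*. By immunoblot, the study reported significantly less KDM3B protein in the vermis and flocculus of *Kdm3b*+/- mice. A gene was called differentially expressed (DEX) where its adjusted p was under 0.05 and its level changed by more than 1.2 times, and 63 of the 13652 genes whose mean TPM was 1 or more were DEX. The fit rests on 2 mice per group, for which an exact permutation test of a single value cannot go below p = 0.333. Granule cell markers were detected, with 12 of 12 tested and summed levels of 4095 to 4870 TPM. Markers of oligodendrocytes summed to 15230 to 18220 TPM and those of Purkinje cells to 704 to 1463 TPM, so the tissue was a mixture. In such bulk tissue, fewer cells of a type and less RNA per cell cannot be told apart.

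Across the clustered protocadherins, the beta and gamma clusters were lower in the *Kdm3b*+/- mice and the alpha cluster was not. The 58 members together held 228.5 and 275.4 TPM in WT mice against 201.5 and 212.3 TPM in *Kdm3b*+/- mice, at most 0.0275% of all TPM in a library. Summed beta expression was 70.2 and 74.9 TPM in the WT mice against 52.7 and 51.7 TPM in *Kdm3b*+/- mice (72.5 ± 3.36 against 52.2 ± 0.720, SD, n = 2 each), so the groups did not overlap and the *Kdm3b*+/- mean was 28.0% below the WT mean. Summed gamma expression was 122.3 and 156.9 TPM against 106.5 and 120.7 TPM, and its *Kdm3b*+/- mean was 18.6% below the WT mean. The lower WT and the higher *Kdm3b*+/- gamma sum were closer to each other than the WT mice were, and the groups overlapped after quantile normalization. Without WT mouse 2, the log2 ratio of the gamma means changed from -0.30 to -0.11, whereas that of beta stayed between -0.52 and -0.43 whichever library was left out. Summed alpha expression was 36.0 and 43.6 TPM in WT mice against 42.2 and 39.9 TPM in *Kdm3b*+/- mice, and the groups overlapped, with a log2 ratio of 0.04. The sums are given as values without a test.

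**Figure D1:**
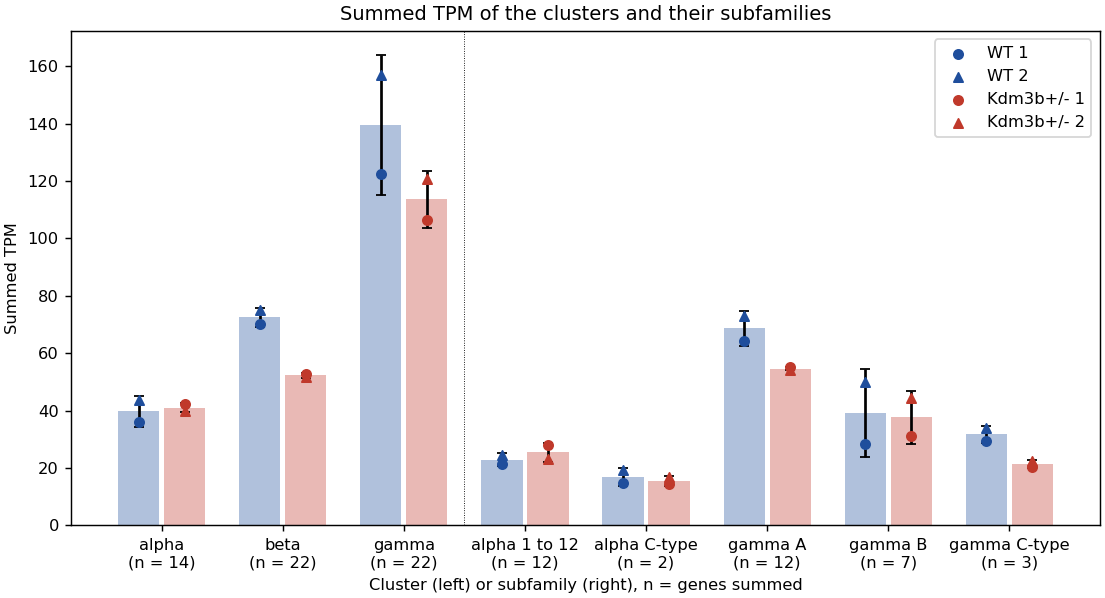
Summed TPM of each cluster (left) and of its subfamilies (right), with the number of genes summed under each name. Bars are means and error bars SD of 2 mice, points are single libraries (circle, mouse 1; triangle, mouse 2), and the beta, gamma A and gamma C-type groups do not overlap while alpha and gamma B do.

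Of the 58 members, 53 had a mean TPM of at least 1 and were tested, 13 of alpha, 19 of beta and 21 of gamma. Among these, *Pcdhb4* and *Pcdhb18* reached a mean of 1 only in the WT group. Both count below among the beta members that were lower and that were lower without overlap. *Pcdhb4* also counts among the lower members with an unadjusted p under 0.05, so these counts partly reflect the filter. One member, *Pcdhb9*, was DEX (1.89% of those tested), against a background of 0.461% of all tested genes, with 0.344% of all tested genes DEX and lower and 0.117% DEX and higher. No member was DEX and higher. At an unadjusted p under 0.05, 10 members were lower and 1 was higher, which is 20.8% of those tested, against 17.0% of all tested genes (11.5% lower and 5.47% higher). A negative log2 fold change was seen for 2 of 13 alpha, 17 of 19 beta and 16 of 21 gamma members, against 60.4% of all tested genes. With median-ratio scaling these counts were 2, 14 and 15, against 50.6% of all tested genes. Median log2 fold changes were 0.15 for alpha, -0.24 for beta and -0.28 for gamma members, beside a median of -0.07 over all tested genes. With a library left out, the alpha median ranged from 0.06 (without WT mouse 1, with 6 of 13 members lower) to 0.19 (without WT mouse 2, with 1 lower). The beta median was closest to 0 without *Kdm3b*+/- mouse 2, at -0.13, and the gamma median without WT mouse 2, at -0.11. The groups did not overlap for 23 of the 53 members (43.4%), fewer than the 51.3% of all tested genes, and 19 of these 23 were lower in the *Kdm3b*+/- mice. The other 4 were higher, or 7.55% of those tested, against 19.2% of all tested genes. In the beta cluster 10 of 19 members were lower without overlap (52.6%), in the gamma cluster 9 of 21 (42.9%) and in the alpha cluster 0 of 13, against 32.0% of all tested genes. Counted over all 58 members, tested or not, the *Kdm3b*+/- mean was the lower one for 4 of 14 alpha, 18 of 22 beta and 17 of 22 gamma members.

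**Figure D2:**
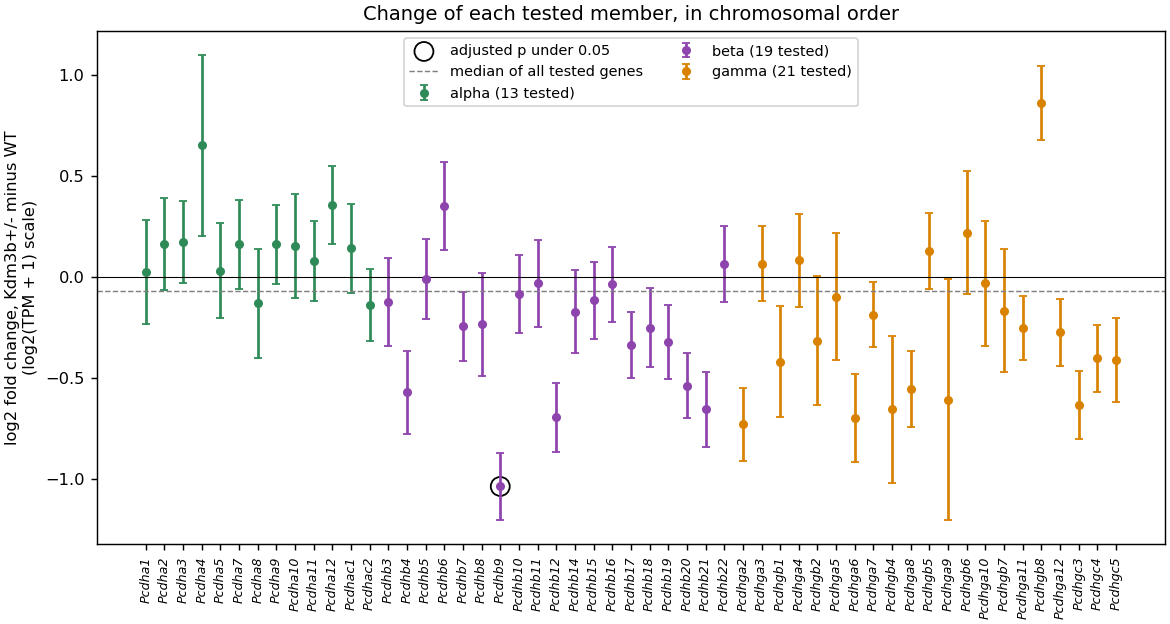
Log2 fold change of the 53 tested members (*Kdm3b*+/- minus WT, on the log2(TPM + 1) scale), in chromosomal order and coloured by cluster, with SE bars from the limma fit. Beta and gamma members lie mostly below 0 and below the dashed median of all tested genes, alpha members mostly above it, and the circled gene is *Pcdhb9*.

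*Pcdhb9* was the only member to pass the test. This gene (identifier 93880, chromosome 18, 37400855 to 37403909) encodes a beta protocadherin, an adhesion protein with cadherin repeats and a short cytoplasmic tail. Its level was 9.55 and 9.98 TPM in WT mice against 4.53 and 3.96 TPM in *Kdm3b*+/- mice, so both *Kdm3b*+/- mice lay far below both WT mice. *Pcdhb9* fell by 1.04 on the log2(TPM + 1) scale, with an SE of 0.17 (limma adjusted p = 0.0381). The mean read depth over the gene was 21.2 and 24.7 in the WT libraries and 11.99 and 12.1 in the *Kdm3b*+/- libraries. Of its stretches of 50 bases, 8.75% occur in another member, and of those of 100 bases 1.15% do, so most of its sequence is its own. The direction held in every alternative, but the side of the threshold did not. In limma fits of all libraries the adjusted p ranged from 0.0213 (robust fit) to 0.264 (no filter). It was also above 0.05 with FPKM (0.0568) and with quantile normalization (0.0654). This range leaves aside the fit with the replicate number as a block (0.00916), from which no support is drawn. With a library left out, the log2 fold change lay between -1.12 and -0.96.

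Other beta members were lower by smaller amounts and did not pass the test. *Pcdhb12* had 5.97 and 6.67 TPM in WT mice against 3.68 and 3.36 TPM in *Kdm3b*+/- mice, with a log2 fold change of -0.70 ± 0.17 (SE, limma adjusted p = 0.137). *Pcdhb20*, the most abundant beta gene by its mean TPM, had 11.5 and 12.5 TPM against 7.40 and 8.47 TPM (-0.54 ± 0.16, limma adjusted p = 0.181). For both genes the gap between the groups was wider than the distance between mice of a genotype. *Pcdhb17*, with 7.81 and 7.82 TPM in WT mice against 5.62 and 6.35 TPM in *Kdm3b*+/- mice, differed by -0.34 (limma adjusted p = 0.330). *Pcdhb21* and *Pcdhb4*, chosen after their values were seen, were the other beta genes with an unadjusted p under 0.05. *Pcdhb21* had 3.71 and 4.73 TPM against 2.26 and 2.33 TPM, and *Pcdhb4* had 1.32 and 1.66 TPM against 0.793 and 0.557 TPM. The gene nearest above the minimum for testing was *Pcdhb18*, with 1.15 and 1.201 TPM in WT mice against 0.772 and 0.886 TPM in *Kdm3b*+/- mice, and in the same cluster *Pcdhb1*, *Pcdhb2* and *Pcdhb13* fell short of it. Against the general direction, *Pcdhb6* had 0.952 and 1.55 TPM in WT mice against 1.59 and 2.14 TPM in *Kdm3b*+/- mice (0.35 ± 0.22, limma adjusted p = 0.430).

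The lower beta sum was spread over several genes of higher expression. *Pcdhb9* held 5.52 of the 20.3 TPM by which the beta means differed, or 27.2%, and *Pcdhb9*, *Pcdhb20*, *Pcdhb12*, *Pcdhb21* and *Pcdhb17* together held 79.3%. The beta cluster without *Pcdhb9*, an alternative added after seeing the data, still had 60.6 and 64.9 TPM in WT mice against 48.2 and 47.8 TPM in *Kdm3b*+/- mice, which do not overlap. *Pcdhb9* made up 13.5% of beta TPM in WT mice against 8.12% in *Kdm3b*+/- mice, while the share of *Pcdhb20* was 16.5% and 15.2%. Several beta genes of low expression had near-equal values in the 4 libraries, such as *Pcdhb16* with 1.81 and 1.90 TPM against 1.76 and 1.80 TPM (chosen after its values were seen). *Pcdhb16*, with a log2 fold change of -0.04, still counts above among the beta members that were lower without overlap. Across the 19 tested beta members, the log2 fold change was more negative where the mean WT level was higher (Pearson's r = -0.673, Spearman's rho = -0.635). For the 13 alpha and 21 gamma members r was -0.451 and -0.251. These correlations are descriptions, since the WT values enter both measures and members share libraries and sequence. The log2(TPM + 1) scale also understates changes of low genes, which by itself gives such a slope in a cluster that is lower. The *Kdm3b*+/- mean was 0.435 of the WT mean for *Pcdhb9* and 0.453 for the low gene *Pcdhb4*. Their log2 fold changes were -1.04 and -0.57. A larger proportional fall of abundant beta genes is therefore not shown.

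**Figure D3:**
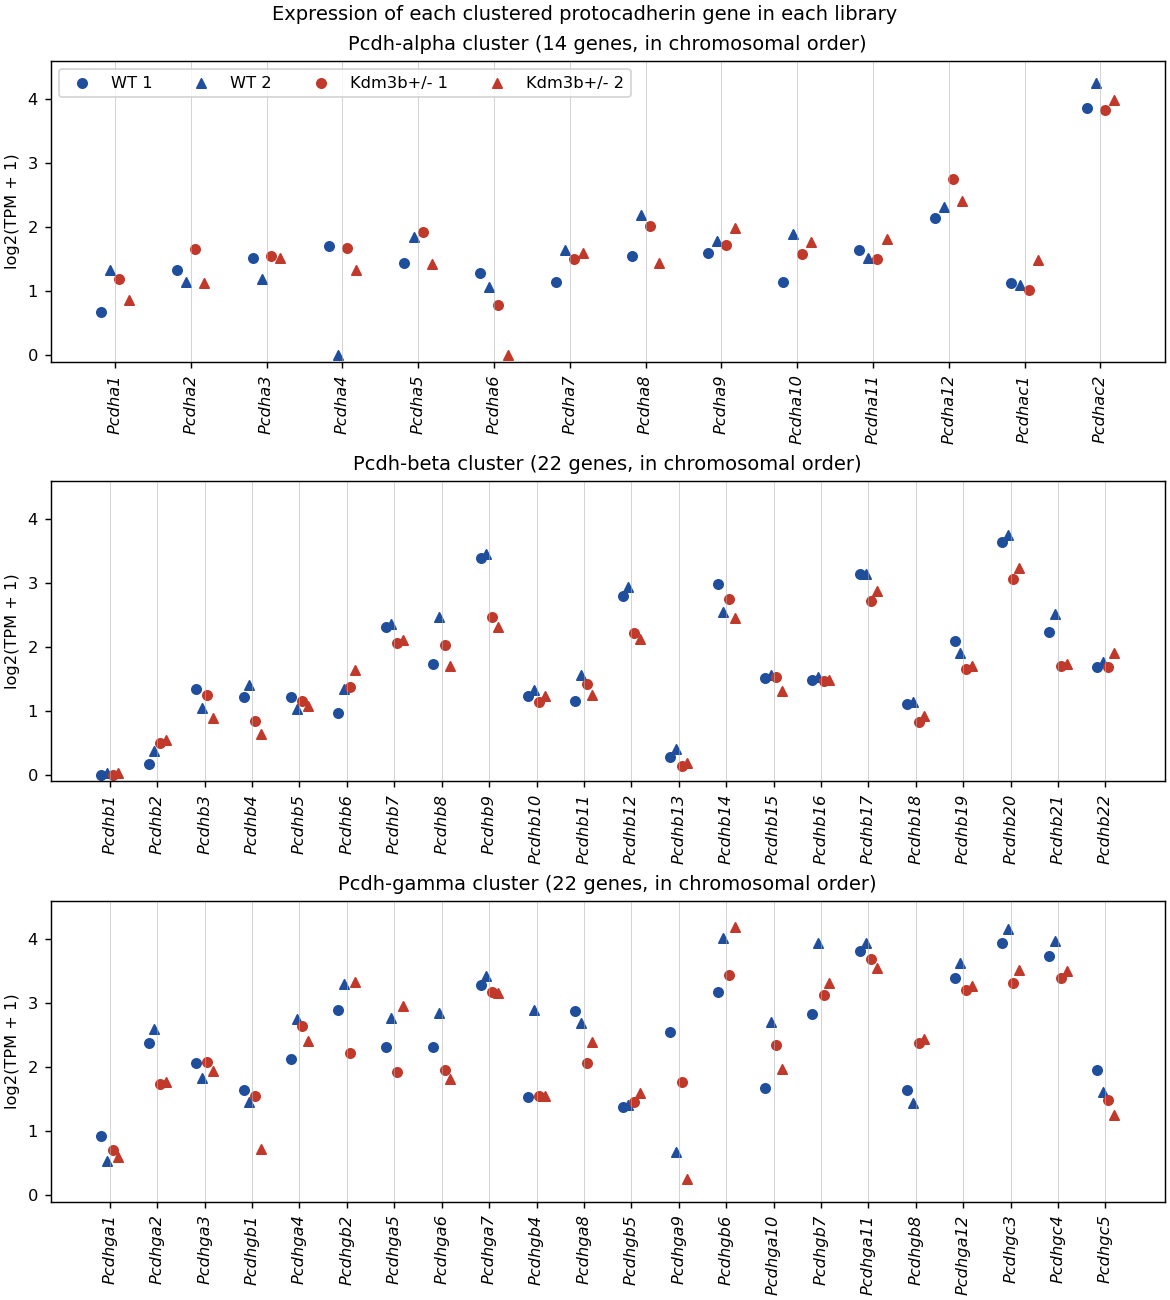
Expression of each of the 58 members in each library as log2(TPM + 1), in chromosomal order, for the alpha, beta and gamma clusters (blue, WT; red, *Kdm3b*+/-; circle, mouse 1; triangle, mouse 2). *Pcdhb9*, *Pcdhb12* and *Pcdhb20* show both red points below both blue points, *Pcdhgb8* the reverse, and many alpha and gamma B genes differ most between mice of a genotype.

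Within the gamma cluster the lower values lay in the A subfamily and in the C-type genes, while the B subfamily overlapped between groups. The 12 A genes summed to 64.4 and 73.0 TPM in WT mice against 55.0 and 54.2 TPM in *Kdm3b*+/- mice, a log2 ratio of -0.33. The 7 B genes summed to 28.4 and 50.03 TPM against 31.2 and 44.2 TPM, with more distance between mice of a genotype than between genotypes. The 3 C-type genes summed to 29.6 and 33.9 TPM against 20.3 and 22.3 TPM, and their *Kdm3b*+/- mean was 32.8% below the WT mean. The differences between subfamilies were not tested.

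The C-type gamma genes all had both *Kdm3b*+/- values below both WT values, as 32.0% of all tested genes did, and none passed the test. *Pcdhgc3*, whose protein promotes dendrite branching, was the most abundant gamma gene by its mean TPM, with 14.4 and 17.0 TPM in WT mice against 8.96 and 10.5 TPM in *Kdm3b*+/- mice (-0.63 ± 0.17, limma adjusted p = 0.154). It held 22.8% of the difference between the gamma means. *Pcdhgc4*, the member needed for the survival of many neurons during development, had 12.3 and 14.8 TPM against 9.58 and 10.4 TPM (-0.40 ± 0.16, limma adjusted p = 0.265). *Pcdhgc5*, which appears late in brain development, had 2.87 and 2.05 TPM against 1.81 and 1.38 TPM (-0.41 ± 0.21, limma adjusted p = 0.347). The C-type alpha genes, which lie upstream of the beta cluster, showed no such separation. *Pcdhac1* had 1.19 and 1.14 TPM in WT mice against 1.03 and 1.81 TPM in *Kdm3b*+/- mice (limma adjusted p = 0.773). *Pcdhac2*, which serotonergic neurons need to space their axons and which was the most abundant alpha gene here, had 13.5 and 18.1 TPM against 13.3 and 14.96 TPM (-0.14 ± 0.18, limma adjusted p = 0.721).

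Among the gamma A and B genes, which encode alternative homophilic recognition domains, the values ran in both directions. *Pcdhga2* had 4.18 and 5.05 TPM in WT mice against 2.36 and 2.40 TPM in *Kdm3b*+/- mice (-0.73 ± 0.18, limma adjusted p = 0.139). *Pcdhga6* had 3.97 and 6.23 TPM against 2.88 and 2.52 TPM (-0.70 ± 0.22, limma adjusted p = 0.187). Both genes were low in both *Kdm3b*+/- mice, and the WT mice lay further apart for *Pcdhga6*. *Pcdhga11*, one of the most abundant A genes, had 13.1 and 14.3 TPM against 11.9 and 10.8 TPM (-0.25 ± 0.16, limma adjusted p = 0.434). *Pcdhga8*, chosen after its values were seen, had 6.37 and 5.48 TPM against 3.18 and 4.29 TPM and an unadjusted p under 0.05. The only member with an unadjusted p under 0.05 that was higher in the *Kdm3b*+/- mice was *Pcdhgb8*, with 2.13 and 1.72 TPM in WT mice against 4.18 and 4.43 TPM in *Kdm3b*+/- mice (0.86 ± 0.18, limma adjusted p = 0.105). GENCODE labels *Pcdhgb8* a polymorphic pseudogene, a gene whose reading frame is intact in some strains only, and its coding model there shares 375 bases with other members against 2119 for most gamma genes. *Pcdhgb5* had 1.61 and 1.65 TPM against 1.74 and 2.01 TPM (0.13 ± 0.19, limma adjusted p = 0.762).

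Several gamma genes varied more between mice of the same genotype than between genotypes. *Pcdhgb6*, the second most abundant gamma gene by its mean TPM, had 8.03 and 15.3 TPM in WT mice against 9.90 and 17.2 TPM in *Kdm3b*+/- mice (limma adjusted p = 0.743). Its neighbour *Pcdhga9*, chosen after its values were seen, had 4.89 and 0.600 TPM in WT mice against 2.41 and 0.189 TPM in *Kdm3b*+/- mice. In both genotypes the mouse that was high in one of these neighbours was low in the other. *Pcdhgb4*, also chosen after its values were seen, stood at 6.42 TPM in WT mouse 2 and at 1.90 to 1.94 TPM in the other 3 libraries. Since these genes share their constant exons, how much of such swings came from the division of shared reads was not tested.

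The alpha genes were of low expression apart from *Pcdhac2*, and their log2 fold changes were mostly positive and small. The 12 genes *Pcdha1* to *Pcdha12* summed to 21.3 and 24.5 TPM in WT mice against 27.9 and 23.1 TPM in *Kdm3b*+/- mice, with overlap. *Pcdha12*, the most abundant of them, had 3.42 and 3.999 TPM against 5.76 and 4.34 TPM and was the only alpha gene higher without overlap (0.36 ± 0.19, limma adjusted p = 0.372). *Pcdha8*, next in abundance, had 1.92 and 3.56 TPM against 3.07 and 1.73 TPM (-0.13 ± 0.27, limma adjusted p = 0.832). No alpha gene had an unadjusted p under 0.05. *Pcdha6*, the member nearest below the minimum for testing, had 1.44 and 1.08 TPM in the WT mice, 0.715 TPM in *Kdm3b*+/- mouse 1 and was listed at 0 in *Kdm3b*+/- mouse 2. *Pcdha4*, chosen after its values were seen, was listed at 0 in WT mouse 2 and had 2.26 TPM in WT mouse 1 and 2.21 and 1.51 TPM in *Kdm3b*+/- mice.

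The zeros of these alpha genes coincided with reads assigned to gene models that run through the clusters. The read-through gene *Gm37013* had 1.15 TPM in WT mouse 2, where *Pcdha4* was listed at 0, and at most 0.0178 TPM in the other libraries. *Gm38666* had 0.784 TPM in *Kdm3b*+/- mouse 2, where *Pcdha6* was listed at 0, 0.370 TPM in *Kdm3b*+/- mouse 1 and at most 0.0108 TPM in the WT mice. Of the 50-base stretches of *Pcdha4*, 97.5% occur in other models of the clusters, read-through genes included, and of those of *Pcdha6* 68.4% do. The median of the alpha members was 60.6%, most of it from the constant exons. The share of *Pcdha6* was thus not unusual, and *Pcdha7*, with 68.7%, was above 0 in every library. Whether the listed zeros of these 2 genes reflect the division of shared reads was not tested.

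Ratios between clusters within a library do not depend on a factor applied to the whole library. The log2 ratio of alpha to beta TPM was -0.96 and -0.78 in WT mice against -0.32 and -0.38 in *Kdm3b*+/- mice, a difference of 0.52 between the means with no overlap. Relative to the beta cluster, alpha expression was thus higher in both *Kdm3b*+/- mice, and the difference stayed between 0.43 and 0.61 whichever library was left out. The log2 ratio of gamma to beta was 0.80 and 1.07 in WT mice against 1.01 and 1.22 in the *Kdm3b*+/- mice, which overlap. The log2 ratio of alpha to gamma was -1.76 and -1.85 against -1.34 and -1.60, a difference of 0.34 without overlap. These differences are given as values without a test.

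**Figure D4:**
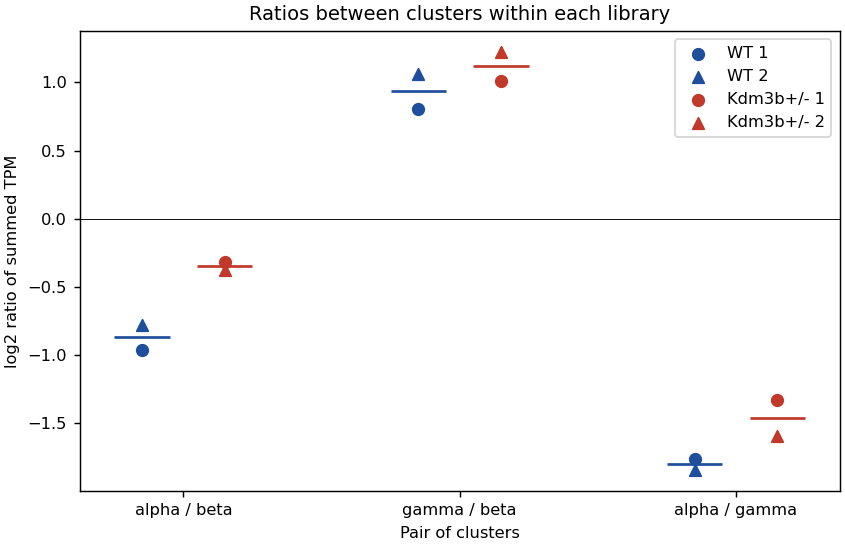
Log2 ratio of summed TPM between pairs of clusters in each library (blue, WT; red, *Kdm3b*+/-; circle, mouse 1; triangle, mouse 2), with short lines at the group means. The alpha to beta ratio of both *Kdm3b*+/- mice lies above that of both WT mice, and the gamma to beta ratio overlaps.

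The relative use of members within a cluster was steadiest in beta. Across the 22 beta members, log2(TPM + 1) correlated between libraries with r = 0.971 to 0.976 within a genotype and 0.936 to 0.957 between genotypes. Alpha members gave 0.751 to 0.895 within and 0.804 to 0.906 between genotypes, and gamma members 0.801 to 0.871 and 0.765 to 0.895, so in these clusters the ranges within and between genotypes overlapped. By rank the beta ranges overlapped as well, with Spearman's rho of 0.935 and 0.976 within a genotype and 0.923 to 0.959 between genotypes. These correlations are across genes that share libraries. The median distance of a member between the 2 WT mice was 0.39 for alpha, 0.14 for beta and 0.25 for gamma on the log2(TPM + 1) scale, and between the *Kdm3b*+/- mice 0.33, 0.16 and 0.18. Mice of a genotype thus lay closest together in the beta cluster. Alpha and gamma genes share constant exons, and whether the division of shared reads affected their correlations and distances was not tested.

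The protocadherins outside the clusters were lower as often as higher. Of the 12 genes of this list, 8 were tested, 4 were lower, 4 were higher and none was DEX, with a median log2 fold change of -0.03. Among all tested genes 60.4% were lower. At an unadjusted p under 0.05 there were 2 of the 8, *Pcdh1* and *Pcdh8*, both lower, against 17.0% of all tested genes (11.5% lower). *Pcdh1*, which also lies on chromosome 18, had 2.78 and 4.29 TPM in WT mice against 1.59 and 2.62 TPM in *Kdm3b*+/- mice (-0.54 ± 0.24, limma adjusted p = 0.292). *Pcdh9*, by far the most abundant protocadherin of the list with 113 and 150 TPM against 128 and 120 TPM, had an adjusted p of 0.855 in the same limma fit. *Pcdh10* (2.06 and 1.80 against 1.98 and 2.40 TPM) and *Pcdh17* (1.97 and 1.92 against 2.05 and 2.21 TPM), delta-protocadherins of axons and synapses, had adjusted p-values of 0.775 and 0.834 in that fit.

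The factors that act on the clusters showed no DEX gene. For comparison, 60.4% of all tested genes were lower and 17.0% had an unadjusted p under 0.05 (11.5% lower). Of the 11 genes of CTCF and cohesin, all tested, 5 were lower and 6 higher, none with an unadjusted p under 0.05. *Ctcf*, which binds the promoters and enhancers of the clusters, had 54.4 and 66.2 TPM in WT mice against 62.3 and 62.7 TPM in *Kdm3b*+/- mice (limma adjusted p = 0.871), and *Rad21*, a cohesin subunit, had 35.7 and 38.8 TPM against 41.2 and 38.7 TPM. Of the 15 genes of silencing, which include DNA and H3K9 methyltransferases and *Kdm3b* itself, 9 were lower and 6 higher. *Smchd1*, a repressor of clustered protocadherins, had 8.02 and 8.77 TPM against 11.4 and 8.85 TPM (limma adjusted p = 0.514), and *Setdb1*, an H3K9 methyltransferase that acts on the clusters, had 12.9 and 16.9 TPM against 12.7 and 13.8 TPM (limma adjusted p = 0.704). Only *Atf7ip*, the partner of *Setdb1*, had an unadjusted p under 0.05 in this list, with 14.1 and 18.3 TPM in WT mice against 9.83 and 8.44 TPM in *Kdm3b*+/- mice (-0.76 ± 0.18, limma adjusted p = 0.127). It was named after its values were seen.

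Genes through which protocadherins signal were mostly lower without passing the test. Of 18 genes, among them the kinases and the WAVE complex of actin regulators that the cytoplasmic tails bind, 17 were tested and 14 were lower, with a median log2 fold change of -0.21 and none DEX, against 60.4% lower among all tested genes. At an unadjusted p under 0.05 there were 4, all lower, against 17.0% of all tested genes (11.5% lower). These were *Cyfip1*, *Cyfip2*, *Nckap1* and *Wasf1*, with adjusted p-values of 0.244 to 0.292 in the limma fit. They encode subunits of the WAVE complex, of which *Brk1* and *Abi1* had positive log2 fold changes (0.14 each), *Brk1* with 357 and 303 TPM in WT mice against 368 and 359 TPM in *Kdm3b*+/- mice. The gene of the list that was not tested, the kinase *Ptk2b*, fell short of the minimum mean TPM. It had 1.62 and 1.17 TPM in WT mice against 0.450 and 0.588 TPM in *Kdm3b*+/- mice. The study, by its count test, lists it among the genes lower in *Kdm3b*+/- mice. *Ptk2b* and the 6 genes above were named after their values were seen.

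Genes beside the clusters were higher slightly more often than lower. Of 16 neighbours, 14 were tested, 6 were lower and 8 higher, none was DEX, and the median log2 fold change was 0.05. Among all tested genes 60.4% were lower, with a median of -0.07. *Taf7*, a subunit of the general transcription factor TFIID that lies between the beta and gamma clusters, was higher in both *Kdm3b*+/- mice, with 26.5 and 22.2 TPM in WT mice against 32.9 and 32.0 TPM in *Kdm3b*+/- mice (0.41 ± 0.15, limma adjusted p = 0.244). *Diaph1*, an actin-nucleating formin beyond the gamma cluster, had 9.51 and 9.38 TPM against 9.93 and 10.1 TPM. *Hdac3*, a histone deacetylase beyond it, had 110 and 89.0 TPM against 83.4 and 97.4 TPM. Besides *Taf7*, the neighbours with an unadjusted p under 0.05 were *Ndufa2*, which was higher, and *Dnd1*, which was lower. These were 3 of the 14 tested, against 17.0% of all tested genes (11.5% lower and 5.47% higher).

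Marker genes of the cell types differed between libraries as well. All 12 Purkinje cell markers were tested and had a negative log2 fold change, with a median of -0.50, against 60.4% negative among all tested genes. Of these, 3 had an unadjusted p under 0.05, against 17.0% of all tested genes, and none was DEX. Their sum was 1463 TPM in WT mouse 1, 749 TPM in WT mouse 2, and 825 and 704 TPM in *Kdm3b*+/- mice, so the groups overlapped. Granule cell markers summed to 4095 and 4870 TPM in WT mice against 4241 and 4346 TPM in *Kdm3b*+/- mice, also with overlap. Leptomeningeal markers, which mark the membranes around the brain, had a lower sum in both *Kdm3b*+/- mice, with 72.3 and 66.3 TPM in WT mice against 42.8 and 45.9 TPM in *Kdm3b*+/- mice. Of their 12 genes 8 were tested, 6 were lower and 2 higher, and *Fmod*, a collagen-binding proteoglycan, fell by 2.11 on the log2(TPM + 1) scale (limma adjusted p = 0.00168). *Dcn*, another proteoglycan and the largest part of the sum, had 36.1 and 28.6 TPM in WT mice against 23.4 and 22.2 TPM in *Kdm3b*+/- mice. *Lum*, a further proteoglycan, went the other way with 1.29 and 0.984 TPM against 3.40 and 2.86 TPM (limma adjusted p = 0.0997). The collagen gene *Col3a1* was also higher without overlap, at 0.448 and 0.563 TPM against 0.863 and 1.05 TPM, *Col1a1* was under 1 TPM in every library, and no marker of the list was at 0 in all libraries. The part of leptomeningeal and Purkinje cell RNA in the beta and gamma values was not tested. Astrocyte and Bergmann glia markers summed to 1247 to 1349 TPM in the WT mice and 1204 to 1435 TPM in *Kdm3b*+/- mice, with 8 of 12 lower and 4 higher. Of them *Aqp4* and *Fabp7* were DEX and higher, while *Gdf10*, *Aldh1l1* and *Slc1a3* were lower at an unadjusted p under 0.05. Oligodendrocyte markers had 6 of 12 lower and 6 higher, with *Mobp* DEX and lower. Sums of the interneuron, endothelial and choroid plexus markers overlapped between the groups, with none DEX, and microglial markers summed to 292 and 296 TPM in WT mice against 308 and 328 TPM in *Kdm3b*+/- mice, also with none DEX.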

How the data were processed

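Bulk RNA sequencing of GCE tissue from 2 WT and 2 *Kdm3b*+/- mice was analysed, grouped by the genotype in the sample labels, which name the tissue as cerebellum. Per the methods of the study, reads were trimmed by base quality, STAR served for alignment and StringTie for abundance. Versions, genome build and annotation are not given in the sources used here. They deposited 1 table per library with 3 values per gene. Coverage, as deposited by the authors, is the mean read depth over exons and is not normalized. FPKM, as deposited by the authors, is scaled to length and mapped fragments, and TPM, as deposited by the authors, to length and a total of 1000000. Dividing coverage by FPKM gave the aligned bases of each library. Read counts were not recovered, so the intervals of counting error are unknown, and the count test of the study was not repeated.

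Symbols were found for 24462 of 24532 identifiers in a RefSeq table of GRCm38.p6, and TPM was summed over entries with the same identifier. Each member had 1 entry. Exons and shared stretches of 50 and 100 bases were taken from the GENCODE transcripts of GRCm38. No sequence of the members is printed here. Genes whose mean TPM was 1 or more were tested on log2(TPM + 1), a scale that understates changes of low genes, by limma 3.58.1 in R 4.3.3 (lmFit, then eBayes with trend), with Benjamini-Hochberg adjustment over 13652 genes. No value above 0 was identical in any 2 libraries. Robust fits used statmod version 1.5.0, and other steps Matplotlib 3.10.9, pandas 2.3.3 and NumPy 2.4.6 under Python 3.11.15. The fit was tested on simulated data of the 13652 genes, in which it called 8%, 72% and 100% of genes altered by 0.5, 1 and 2 on the log2 scale, with 12 false calls. These data were drawn from the variance model of the fit itself, with genes and libraries independent. The shares therefore leave out shared reads and effects of a library, and they cover all genes rather than the members.

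The members, lists and tests were chosen with earlier results of these data known. Genes named were DEX members, the 3 most abundant members of each cluster, the C-type members, the 2 largest rises and falls per cluster among those without overlap, the members nearest the TPM minimum, and 12 listed genes. All other genes named were chosen after their values were seen. The alternatives were a pseudocount of 0.1, FPKM, no filter, a TPM minimum of 5, scaling by median ratios or by quantiles, the highest entry per gene, a fit without trend, a robust fit, the replicate number as a block, each library left out in turn, other thresholds and, for the sums, other choices of members.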

Additional observations from a re-analysis of the deposited data

How the results depend on the processing

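The DEX count of 1 member fell to 0 with FPKM, with no filter, with quantile normalization and with a log2 fold change over 1.2 as threshold, and was 0 to 1 when a library was left out (63 DEX genes overall became 38 with FPKM, 1 with no filter, 37 without trend, and 21 to 188 with a library left out). In those fits the adjusted p of *Pcdhb9* was 0.0568 with FPKM, 0.264 with no filter and 0.0654 with quantile normalization. Left-out libraries leave 1 mouse in a group, which is assumed to vary like the others. With the replicate number as a replicate block, 5 members were DEX, *Pcdhb9*, *Pcdhb12*, *Pcdhga2*, *Pcdhgb8* and *Pcdhgc3*, among 600 DEX genes (4.39% of those tested). The labels do not say whether the numbers pair animals (deviations of same-numbered mice correlated with r = 0.12 over 13652 genes), so no support is drawn from this fit. The log2 ratio of the beta sums was -0.41 with FPKM, -0.40 with median-ratio scaling, -0.37 with quantile normalization and, added after seeing the data, -0.39 without *Pcdhb9* and -0.41 as coverage per aligned gigabase, which equals FPKM by construction. The alpha ratio ranged from -0.088 to 0.189, beta from -0.52 to -0.43, gamma from -0.47 to -0.11 and all members from -0.41 to -0.14 with a library left out, gamma and all members being closest to 0 without WT mouse 2. The differences in log2 ratio ranged from 0.43 to 0.61 (alpha to beta), 0.05 to 0.32 (gamma to beta) and 0.21 to 0.47 (alpha to gamma). The sign reversed for *Pcdha8* (-0.45 to 0.19), *Pcdhac1* (-0.093 to 0.377), *Pcdhac2* (-0.335 to 0.057) and *Pcdhgb6* (-0.21 to 0.64) with a library left out, and for the alpha median at a mean TPM of at least 5 (-0.14, 1 gene tested). Median-ratio scaling moved the median of all genes from -0.07 to -0.005. The other alternatives kept the direction and the side of the threshold of all 19 named members that were tested. In simulated data drawn from the variance model of the fit, the test called 72% of genes altered by 1 on the log2 scale and 8% of those altered by 0.5.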
